A study of Mus musculus with 16 samples.

Results

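The genes described here are 8 components of growth factor signalling: the ligands Hgf, Nrg1 and Vegfa, the receptors Met, Pdgfrb, Insr and Igf1r, and the receptor-binding adaptor Grb10. They were taken by symbol from the 22180 genes measured on 16 arrays, each being represented by the brightest probe set that carries its symbol alone. All 8 had exactly 1 such probe set (Hgf 17434933, Nrg1 17508609, Vegfa 17345293, Met 17456176, Pdgfrb 17351027, Insr 17507057, Igf1r 17479099 and Grb10 17260668), and all 8 matched the gene table of RefSeq by identifier. The genes were chosen by measured values: earlier results of these arrays were in view, in which Pdgfrb and Grb10 had been called for antibiotics and Met and Nrg1 had large differences between progenitors. The values by progenitor and by water are therefore given as a description. Counts of calls among the 8 genes stand beside the share over all genes and support nothing, and the p-value of a single one of the 8 is given only for the test of whether the antibiotic difference varied between progenitors.

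RNA came from myeloid progenitors sorted from the bone marrow of wild-type C57BL/6 mice. Mice drank antibiotic water (ampicillin, metronidazole, neomycin and vancomycin at 1 g/L each) or control water for 3 weeks, and both waters held 2% sucrose. Common myeloid progenitors (CMPs), granulocyte-monocyte progenitors (GMPs) and committed monocyte progenitors (cMoPs) were all sorted as lineage-negative, Kit-positive and CD105-negative cells. CMPs had intermediate and GMPs high CD16/32 without CD115, and cMoPs carried CD115 and Ly6C. There were 3 antibiotic and 3 control arrays of CMPs, and 3 antibiotic and 2 control arrays each of GMPs and of cMoPs. Age and sex are not stated in the labels used here, nor whether an array stands for 1 mouse or a pool. The p-values therefore measure the spread between these samples, which may be technical.

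Receptor tyrosine kinases are cell-surface receptors that phosphorylate themselves and their partners when a ligand brings them together, and pass the signal to the RAS and PI3 kinase pathways. Hepatocyte growth factor (HGF) is the ligand of MET, neuregulin 1 binds ERBB3 and ERBB4, PDGF receptor beta is best known from mural and stromal cells, and VEGF-A drives blood vessel growth. The insulin and IGF1 receptors are close relatives that control growth and metabolism, and GRB10 binds both and restrains them. Grb10 is an imprinted gene in the mouse. In blood formation the best known receptors of the class are KIT, FLT3 and the CSF1 receptor, of which KIT and the CSF1 receptor (CD115) belong to the sort gates used here.

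The start regions of Met, Vegfa and Grb10 are shown because these 3 genes differed widely between progenitors and had an entry in the RefSeq promoter table, which matched 5 of the 8 genes. Hgf and Igf1r also matched, and Nrg1, Pdgfrb and Insr did not. Each sequence is the 250 bases before an annotated transcript start in GRCm38.p6, read 5′ to 3′ on the gene's own strand, with GGGCGG in capitals wherever it occurs on either strand. Met lies on the plus strand (chr6:17463707-17463956), and Vegfa (chr17:46032378-46032627) and both starts of Grb10 (chr11:12037421-12037670 and chr11:12027972-12028221) lie on the minus strand.
Met: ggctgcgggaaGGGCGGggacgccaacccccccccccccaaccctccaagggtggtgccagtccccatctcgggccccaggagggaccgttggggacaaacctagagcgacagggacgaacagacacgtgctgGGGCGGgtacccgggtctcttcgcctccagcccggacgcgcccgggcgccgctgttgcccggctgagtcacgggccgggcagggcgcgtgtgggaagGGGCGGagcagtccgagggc
Vegfa: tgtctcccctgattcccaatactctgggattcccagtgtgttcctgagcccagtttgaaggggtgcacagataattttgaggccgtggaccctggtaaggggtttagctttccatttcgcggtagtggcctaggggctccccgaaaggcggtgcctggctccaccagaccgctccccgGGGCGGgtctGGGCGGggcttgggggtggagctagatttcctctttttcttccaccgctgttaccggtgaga
Grb10, start 1: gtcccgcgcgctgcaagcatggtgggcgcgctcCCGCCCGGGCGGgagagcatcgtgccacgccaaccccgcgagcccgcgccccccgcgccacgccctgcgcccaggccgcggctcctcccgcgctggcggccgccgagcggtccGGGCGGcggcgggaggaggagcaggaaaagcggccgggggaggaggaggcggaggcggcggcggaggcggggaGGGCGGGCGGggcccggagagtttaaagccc
Grb10, start 2: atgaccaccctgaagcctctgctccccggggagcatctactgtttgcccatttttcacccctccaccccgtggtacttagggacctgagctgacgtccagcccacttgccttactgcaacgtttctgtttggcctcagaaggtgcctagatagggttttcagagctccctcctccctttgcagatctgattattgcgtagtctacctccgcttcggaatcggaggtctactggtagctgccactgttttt

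The GGGCGG box, a core recognised by Sp1-type factors, occurred 3 times in the Met window, 2 times in the Vegfa window shown, 5 times at the first start of Grb10, overlapping matches included, and 0 times at its second. It was present in 32.7% of the 32851 windows of this length in the table. The G and C content was 74% for Met, 59.2% for Vegfa, 81.2% for the first start of Grb10 and 54% for its second, against a median of 52.4% over all windows. ACGTG, the core bound by hypoxia-inducible factors, occurred in the Met window at 1 palindromic place that reads as a match on both strands and is counted 2 times. It occurred 0 times in the Vegfa window shown and 1 time at a second annotated start of Vegfa (chr17:46025164-46025413), which also held GGGCGG 1 time (16.6% of all windows hold ACGTG). The letters AGATAA, of the kind bound by erythroid-type zinc finger factors, occurred 1 time in the Vegfa window shown (9.99% of windows). The letters GAGGAA, found in binding sites of PU.1, occurred 1 time in that same window and 0 times in Met (23.3% of windows). A match is a description of letters, and no match says only that these letters are not in the window. The probe set of Grb10 gives 1 value per array, so its starts are not told apart in the values that follow.

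Values are log2 signals as deposited. Each array had a lower quartile of 2.89 to 2.99 and a median of 4.04 to 4.17 over all probe sets, and no array of the 8 genes fell below its lower quartile. Arrays of the same group correlated at r = 0.985 to 0.991 and arrays of different groups at 0.961 to 0.991 across genes, which are not independent replicates. Against CMPs the progenitor labels matched their markers. The 7 measured CMP-side markers (Gata1, Gata2 and others) were all called lower in GMPs than in CMPs. The 8 GMP-side markers were all called higher in GMPs than in CMPs, and the 9 monocyte-side markers were all called higher in cMoPs than in CMPs. The GMP-side markers were also all called higher in cMoPs than in CMPs, and 3 of the 8 were called lower in cMoPs than in GMPs. Of the monocyte-side markers, 8 were called higher in cMoPs than in GMPs. The monocyte-side list holds the sort gate genes Csf1r and Ly6c2, whose part in the match was set by the sort. Some lists of other cell types also differed. Of 10 mature neutrophil markers, 1 was called higher and 6 lower in GMPs than in CMPs (7.87% and 8.17% of all genes). In cMoPs 9 were called lower than in CMPs (9.2%), and their mean on CMP arrays was 7.845 to 8.369. Of 10 endothelial markers, 1 was called higher and 5 lower in cMoPs than in CMPs. Of 10 mast cell and basophil markers, 6 were called higher in GMPs than in CMPs. The part of such cells was not tested. In sorted bulk samples, fewer cells of a type and less RNA per cell cannot be told apart. Differences are in log2 with their standard error from limma. A gene was called at a Benjamini-Hochberg adjusted p of limma under 0.05 between progenitors and under 0.2 for antibiotics.

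**Figure D1:**
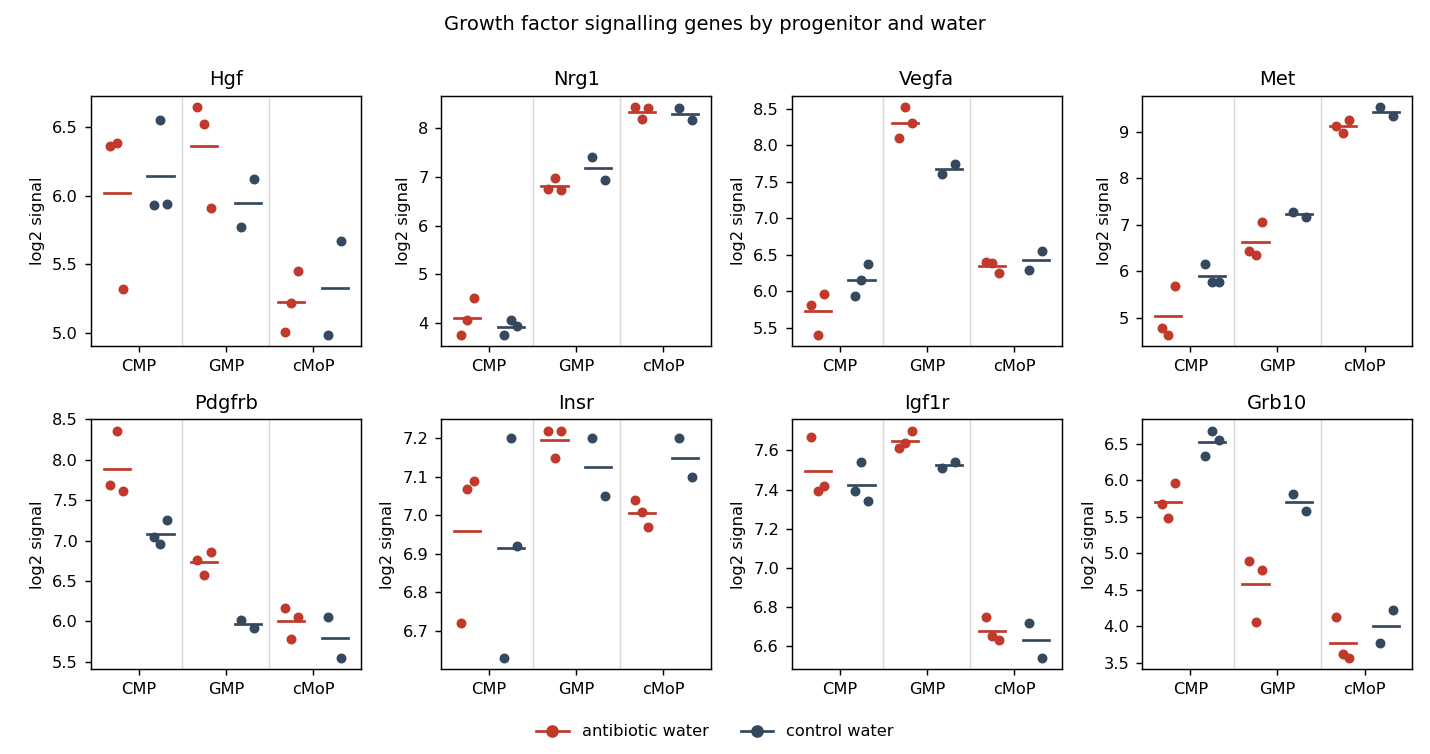
The log2 signal (vertical axis, a separate range in each panel) of the 8 genes is plotted for every array, with antibiotic arrays left of control arrays in each progenitor and a line at each group mean. Nrg1 and Met were highest in cMoPs, Vegfa in GMPs and Pdgfrb and Grb10 in CMPs, and Insr stayed between 6.63 and 7.22 on all 16 arrays.

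Among the ligands, Nrg1 had the widest range over the progenitors. Its log2 signal was 3.76, 4.06 and 4.51 in CMPs after antibiotics, against 3.76, 3.94 and 4.06 in control CMPs. In GMPs it was 6.73, 6.75 and 6.98 after antibiotics, against 6.93 and 7.42 in controls. In cMoPs it was 8.20, 8.41 and 8.43 after antibiotics, against 8.18 and 8.41 in controls. No array of one progenitor overlapped with another progenitor, and the waters overlapped in each progenitor. The CMP values lay close to the array medians, 2 of 3 arrays below them in either water, so the size of a difference from CMPs may be understated. Averaged over both waters, Nrg1 was 4.31 ± 0.14 higher in cMoPs than in CMPs, made up of 2.98 ± 0.14 for GMPs minus CMPs and 1.32 ± 0.14 for cMoPs minus GMPs. The genes whose values over the 16 arrays were most like those of Nrg1 were Nfam1 (Pearson r = 0.985), the actin regulator Coro1a (0.984) and the glutathione transferase Mgst1 (0.981).

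Vegfa was highest in GMPs. Its signal there was 8.10, 8.31 and 8.52 after antibiotics, against 7.61 and 7.75 in controls. In CMPs it was 5.41, 5.82 and 5.97 after antibiotics, against 5.94, 6.16 and 6.38 in controls. In cMoPs it was 6.25, 6.39 and 6.40 after antibiotics, against 6.29 and 6.56 in controls. All 5 GMP arrays lay above all arrays of the other progenitors, and among these others CMPs and cMoPs overlapped. GMPs exceeded CMPs by 2.05 ± 0.12 (4.14-fold), and the difference was -1.61 ± 0.13 for cMoPs minus GMPs and 0.44 ± 0.12 for cMoPs minus CMPs. The patterns most like it were those of Prom1, the surface protein CD133 (r = 0.979), the granule protein gene Pglyrp1 (0.974) and Fgl2 (0.958), over 16 arrays.

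Hgf varied more within groups than any other of the 8 genes, with a pooled SD of 0.41, and differed less between progenitors than Nrg1. It also differed less than Vegfa, except for cMoPs minus CMPs (-0.80, against 0.44 for Vegfa). Its signal was 5.32, 6.36 and 6.38 in CMPs with antibiotics, against 5.93, 5.94 and 6.55 in control CMPs. In GMPs it was 5.91, 6.52 and 6.64 with antibiotics, against 5.77 and 6.12 in controls, and in cMoPs 5.01, 5.22 and 5.45 with antibiotics, against 4.99 and 5.67 in controls. The waters overlapped in each progenitor. It ranged from 5.32 to 6.55 in the 6 CMP arrays, from 5.77 to 6.64 in the 5 GMP arrays and from 4.99 to 5.67 in the 5 cMoP arrays. cMoP arrays therefore lay below all GMP arrays and overlapped with CMP arrays. The difference was -0.87 ± 0.23 for cMoPs minus GMPs, -0.80 ± 0.22 for cMoPs minus CMPs and 0.07 ± 0.22 for GMPs minus CMPs. The CMP antibiotic array at 5.32 lay well under the other 2 of its group. Its most similar genes were Utrn, which encodes utrophin (r = 0.877), and the chromatin genes Arid2 (0.868) and Baz2b (0.867).

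Met, the receptor for HGF, was lowest in CMPs and highest in cMoPs, the opposite direction to its ligand between these progenitors. Its signal was 4.64, 4.78 and 5.68 in CMPs after antibiotics, against 5.76, 5.77 and 6.15 in control CMPs. In GMPs it was 6.36, 6.44 and 7.06 after antibiotics, against 7.17 and 7.27 in controls. In cMoPs it was 8.98, 9.12 and 9.26 after antibiotics, against 9.33 and 9.52 in controls. The 6 groups stood in the order CMP antibiotic, CMP control, GMP antibiotic, GMP control, cMoP antibiotic and cMoP control, and no 2 neighbours in this order overlapped. The difference was 3.81 ± 0.18 for cMoPs minus CMPs (14.02-fold), 1.46 ± 0.18 for GMPs minus CMPs and 2.35 ± 0.19 for cMoPs minus GMPs. The genes most like Met over the 16 arrays were Rassf4 (r = 0.988), the galectin gene Lgals1 (0.978) and Csf1r, the CSF1 receptor (0.976). Csf1r is part of the cMoP sort gate, so its own difference between progenitors is not a result. Across the 16 arrays, which share the 3 progenitors, Met and Nrg1 correlated at r = 0.91 and Met and Hgf at r = -0.73.

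Pdgfrb ran in the reverse order of Met along the same progenitors and was highest in CMPs. Its signal was 7.62, 7.69 and 8.36 in CMPs after antibiotics, against 6.96, 7.04 and 7.25 in control CMPs. In GMPs it was 6.57, 6.76 and 6.86 after antibiotics, against 5.92 and 6.02 in controls. In cMoPs it was 5.78, 6.06 and 6.17 after antibiotics, against 5.55 and 6.05 in controls. All CMP arrays lay above all GMP and cMoP arrays, and GMPs and cMoPs overlapped. The differences were -1.14 ± 0.14 for GMPs minus CMPs, -1.59 ± 0.14 for cMoPs minus CMPs and -0.45 ± 0.15 for cMoPs minus GMPs. Pdgfrb is a known marker of stromal and mural cells, so their other markers were set beside it. Of 16 such markers, 10 or 11 had group means under the array medians in every group, and the mean of the list lay between 3.59 and 3.80 on all arrays. Lepr, of marrow stromal cells, had group means of 2.25 to 2.63, and the matrix gene Lum 2.35 to 2.60, below the array quartiles. Others of the list lay above the array medians in every group, among them the marrow stromal chemokine gene Cxcl12 (4.37 to 4.71), the smooth muscle actin gene Acta2 (5.45 to 5.75) and the collagen genes Col1a1 (4.33 to 4.59) and Col1a2 (4.30 to 4.49). The part of such cells in the Pdgfrb values was not tested. Limma called 0 of the 16 in the progenitor comparisons and 0 for antibiotics, with 2 at an unadjusted p under 0.05 in GMPs minus CMPs, in cMoPs minus CMPs and for antibiotics and 0 in cMoPs minus GMPs. The genes most like Pdgfrb were Scin, an actin-severing protein (r = 0.933), Pan3 (0.929) and the zinc finger gene Vezf1 (0.927).

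In the comparisons with CMPs the insulin-type receptors differed less than Met and Pdgfrb. For cMoPs minus GMPs Igf1r differed more than Pdgfrb (-0.93 against -0.45). Igf1r had 7.34 to 7.67 in CMPs, 7.51 to 7.70 in GMPs and 6.54 to 6.75 in cMoPs, so that every cMoP array lay below every array of the other progenitors while CMPs and GMPs overlapped. The difference was -0.93 ± 0.09 for cMoPs minus GMPs and -0.81 ± 0.09 for cMoPs minus CMPs, with a pooled SD within groups of 0.099, the smallest of the 8 genes. Its pattern was most like that of the mast cell protease gene Cpa3 (r = 0.970), Unc119 (0.952) and Tmem131l (0.948). Insr had 6.63 to 7.20 in CMPs, 7.05 to 7.22 in GMPs and 6.97 to 7.20 in cMoPs, and all 3 progenitors overlapped. Its differences were 0.22 ± 0.11 for GMPs minus CMPs, 0.14 ± 0.11 for cMoPs minus CMPs and -0.08 ± 0.11 for cMoPs minus GMPs. Between waters, Igf1r arrays did not overlap in GMPs, at 7.61, 7.64 and 7.70 with antibiotics, against 7.51 and 7.54 in controls, as for 10.4% of all genes in that direction. Insr arrays did not overlap in cMoPs, at 6.97, 7.01 and 7.04 with antibiotics, against 7.10 and 7.20 in controls, as for 11.4% of all genes. Both genes overlapped in the other progenitors. The genes most like Insr reached only r = 0.816 (Tmem219), 0.812 (Spink4) and 0.810 (Plekha2).

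Grb10, the adaptor that binds both of these receptors, was highest in CMPs and lowest in cMoPs. Its signal was 5.48, 5.68 and 5.96 in CMPs after antibiotics, against 6.34, 6.55 and 6.68 in control CMPs. In GMPs it was 4.06, 4.78 and 4.90 after antibiotics, against 5.58 and 5.82 in controls. In cMoPs it was 3.57, 3.62 and 4.13 after antibiotics, against 3.78 and 4.23 in controls. In cMoPs 2 of 3 antibiotic arrays and 1 of 2 control arrays lay under the array median, among the weaker signals of these arrays. The difference was -2.23 ± 0.17 for cMoPs minus CMPs, -0.97 ± 0.17 for GMPs minus CMPs and -1.25 ± 0.17 for cMoPs minus GMPs. Neighbouring groups in the order of means overlapped for cMoP antibiotic and cMoP control, for cMoP control and GMP antibiotic, and for GMP control and CMP antibiotic. The genes most like Grb10 were Lgals3bp (r = 0.938), Clstn3 (0.935) and Rab27b, a small GTPase of secretion (0.931).

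**Figure D2:**
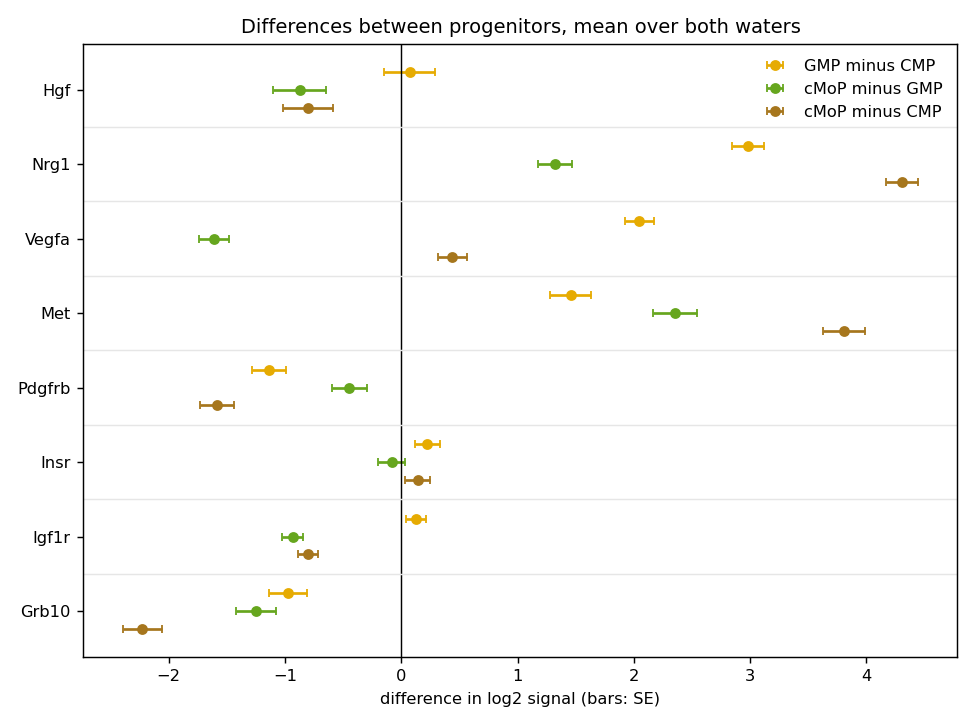
Points give the difference in log2 signal between progenitors (horizontal axis, mean over both waters) for each of the 8 genes, and bars the standard error. The cMoP minus CMP difference ran from -2.23 for Grb10 to 4.31 for Nrg1.

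Of the 8 genes, limma called 3 higher and 2 lower in GMPs than in CMPs, where 7.87% and 8.17% of all genes were called in these directions. For cMoPs minus GMPs it called 2 higher and 4 lower (2.6% and 2.82% of all genes), and for cMoPs minus CMPs 3 higher and 4 lower (9.72% and 9.2%). Because the genes were chosen with such results known, these counts are not evidence about the group. Without overlap of any arrays, 3 of the 8 genes were higher and 1 lower in GMPs than in CMPs (5.49% and 5.75% of all genes), and 2 higher and 3 lower in cMoPs than in GMPs (3.33% and 3.17%). For cMoPs against CMPs 2 were higher and 3 lower in this way (6.87% and 6.33%). Hgf lost its call for cMoPs minus CMPs without cMoP control 1 (-0.63). For cMoPs minus GMPs it lost its call in 7 of 16 omissions of an array, each of a GMP or cMoP array, with differences from -0.96 to -0.70. These were GMP antibiotic 1 and 2, GMP control 1 and 2, cMoP antibiotic 1 and 2 and cMoP control 1. Vegfa lost its call for cMoPs minus CMPs without cMoP control 2 (0.37), and Pdgfrb gained one for cMoPs minus GMPs without CMP antibiotic 2 (-0.45).

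After antibiotics Grb10 and Met had lower means and Pdgfrb a higher mean in each progenitor. Grb10 averaged 5.71 ± 0.24 (SD, n = 3) in CMPs with antibiotics, against 6.52 ± 0.17 (n = 3) in control CMPs. In GMPs it averaged 4.58 ± 0.45 (SD, n = 3) with antibiotics, against 5.70 ± 0.17 (n = 2) in control arrays. The antibiotic minus control difference of Grb10 was -0.82 ± 0.22 in CMPs, -1.12 ± 0.25 in GMPs and -0.23 ± 0.25 in cMoPs. Its arrays did not overlap in CMPs, where 6.36% of all genes had every antibiotic array below every control array. They did not overlap in GMPs either, where 12.6% did, and overlapped in cMoPs. Grb10 signals in cMoPs were weak, with group means of 3.77 and 4.005 under the array medians, so a fall there may be understated. Among GMP antibiotic arrays 1 of 3 also lay under the array median for Grb10. Met averaged 5.03 ± 0.56 in CMPs with antibiotics, against 5.89 ± 0.22 in control CMPs (SD, n = 3 each). Its difference was -0.86 ± 0.24 in CMPs, -0.60 ± 0.27 in GMPs and -0.31 ± 0.27 in cMoPs. Its antibiotic arrays lay below its control arrays in all 3 progenitors, as those of 0.252% of all genes did. The CMP difference was not called with all arrays. Over 22 alternative settings it ran from -1.18 without CMP antibiotic 3, the highest of its group, to -0.66 without CMP antibiotic 2. It was called in 1 of the 22, without CMP antibiotic 3.

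Pdgfrb averaged 7.89 ± 0.41 in CMPs with antibiotics, against 7.08 ± 0.15 in control CMPs (SD, n = 3 each). In GMPs it averaged 6.73 ± 0.15 (SD, n = 3) with antibiotics, against 5.97 ± 0.071 (n = 2) in control arrays. Its difference was 0.81 ± 0.19 in CMPs, 0.76 ± 0.21 in GMPs and 0.20 ± 0.21 in cMoPs. The antibiotic arrays lay above the control arrays in CMPs (5.21% of all genes) and in GMPs (10.4%), and overlapped with them in cMoPs. In cMoPs the value was 0.45 without cMoP control 1 and -0.05 without cMoP control 2.

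Averaged over the progenitors with equal weight, the antibiotic difference was -0.72 ± 0.14 for Grb10, -0.59 ± 0.15 for Met and 0.59 ± 0.12 for Pdgfrb. Limma called 1 of the 8 genes higher (Pdgfrb) and 1 lower (Grb10), where 0.271% and 0.243% of all genes were called. This contrast served in choosing the genes, so nothing is read from the count. Pdgfrb was not called without GMP control 2 (0.57) or without cMoP antibiotic 1 (0.56). Met, not called with all arrays, was called without CMP antibiotic 3 (-0.70), without GMP antibiotic 3 (-0.66) and without cMoP control 2 (-0.62). It was also called, at -0.59, with only the brighter genes or with trend and robust variances. Within single progenitors limma called 0 of the 8 genes. In CMPs 0.0406% of all genes were called (0.0225% higher and 0.018% lower), in GMPs 0.0721% (0.0496% and 0.0225%) and in cMoPs 0.131% (0.0902% and 0.0406%). An unadjusted p under 0.05 was found for 4 of the 8 among CMP arrays (7.24% of all genes), for 4 among GMP arrays (7.49%) and for 0 among cMoP arrays (6.2%), and nothing is read from these counts. Pdgfrb was called in CMPs with trend and robust variances (0.81), and Grb10 in GMPs with only the brighter genes (-1.12). In cMoPs 2 of the 8, Met and Insr, had all antibiotic arrays below all control arrays and 0 above (11.4% and 9.59% of all genes). The other 5 genes had mean differences between -0.04 and 0.08 (Nrg1 -0.04 ± 0.11, Insr -0.01 ± 0.09, Vegfa 0.04 ± 0.10, Hgf 0.06 ± 0.18, Igf1r 0.08 ± 0.07).

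**Figure D3:**
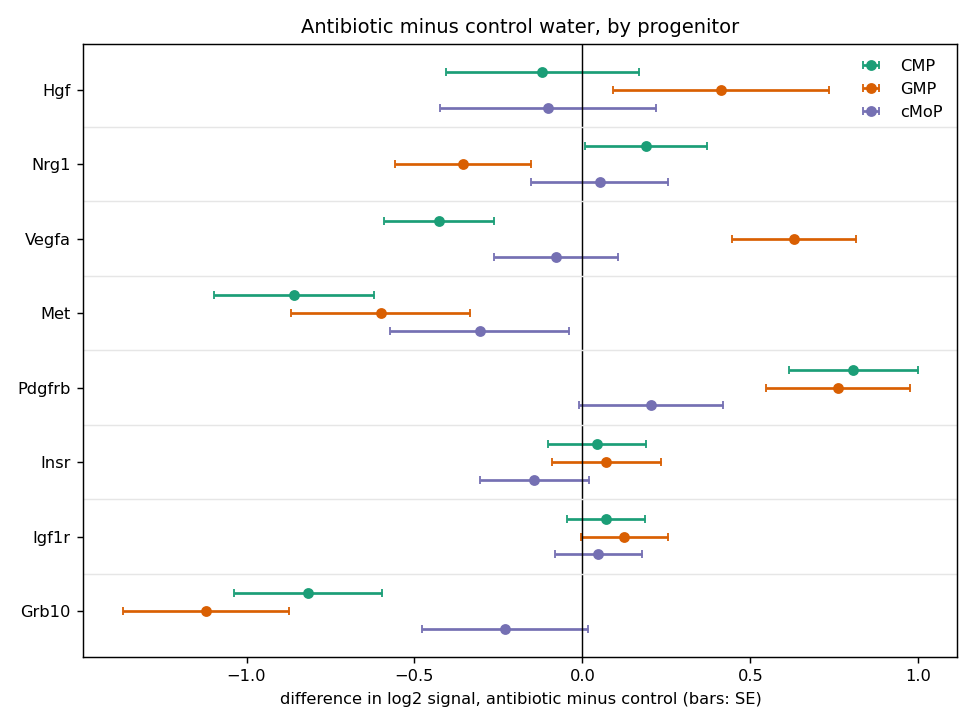
Points give the antibiotic minus control difference in log2 signal (horizontal axis) of each gene within CMPs, GMPs and cMoPs, and bars the standard error. Grb10 and Met lay below 0 and Pdgfrb above 0 in each progenitor, with the smallest differences in cMoPs, and Vegfa lay at -0.43 in CMPs and 0.63 in GMPs.

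Vegfa differed in opposite directions. After antibiotics it was 0.63 ± 0.18 higher in GMPs, where the arrays did not overlap (as for 10.4% of all genes), and in CMPs, where they overlapped at 5.94 to 5.97, the difference was -0.43 ± 0.16. In cMoPs the difference was -0.08 ± 0.18. Limma's F test of whether the antibiotic difference varied between progenitors gave an adjusted p of 0.694 over all genes for Vegfa. The adjusted p of the other 7 genes lay between 0.872 (Grb10) and 0.993 (Igf1r). This test, at a rate under 0.2, called 1 of all 22180 genes (0.00451%) and 0 of the 8, with 1 of the 8 and 1284 of all genes at an unadjusted p under 0.05. A difference in antibiotic response between progenitors was therefore not shown for any of these genes, including Grb10, Pdgfrb and Met with their small values in cMoPs.

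Markers of the progenitors moved with some of these values. The mean of the 9 monocyte-side markers was 6.84 to 7.36 with antibiotics, against 7.53 to 7.67 in control arrays, among CMPs. Among GMPs it was 7.88 to 8.18 with antibiotics, against 8.24 to 8.41 in control arrays. In cMoPs it was 9.67 to 9.87 with antibiotics, against 9.71 to 9.75 in control arrays. Met, which is higher in monocyte-committed cells, was lower in the same CMP and GMP arrays. Over the progenitors limma called 4 of these 9 lower with antibiotics and 0 higher (0.243% and 0.271% of all genes). In CMPs alone it called 1 of these 9 lower (0.018%). Csf1r, one of them by list but not by call, had 6.42 to 6.63 with antibiotics, against 7.05 to 7.18 in control arrays, in CMPs. The mean of the 7 CMP-side markers was 6.42 to 6.46 with antibiotics, against 5.77 to 6.17 in control arrays, in GMPs, where Pdgfrb was higher and Grb10 lower. Of these 7, limma called 1 higher with antibiotics over the progenitors (0.271% of all genes) and 1 higher in GMPs (0.0496%). In CMPs their mean was 8.66 to 8.92 with antibiotics, against 8.68 to 8.84 in control arrays. The mean of the 8 GMP-side markers was 11.19 to 11.29 with antibiotics, against 11.05 to 11.06 in control arrays, in GMPs, the progenitor in which Vegfa was higher. In CMPs it was 8.22 to 8.95 with antibiotics, against 8.67 to 9.19 in control arrays. In cMoPs both of these means were higher in every antibiotic array, as the values of 9.59% of single genes were. The CMP-side mean was 4.86 to 5.00 with antibiotics, against 4.75 to 4.76 in control arrays. The GMP-side mean was 10.36 to 10.57 with antibiotics, against 10.15 to 10.31 in control arrays. Of the 8 GMP-side markers, limma called 1 higher over the progenitors (0.271% of all genes) and 1 higher in cMoPs (0.0902%). The part of these shifts in the values of the 8 genes was not tested.

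**Figure D4:**
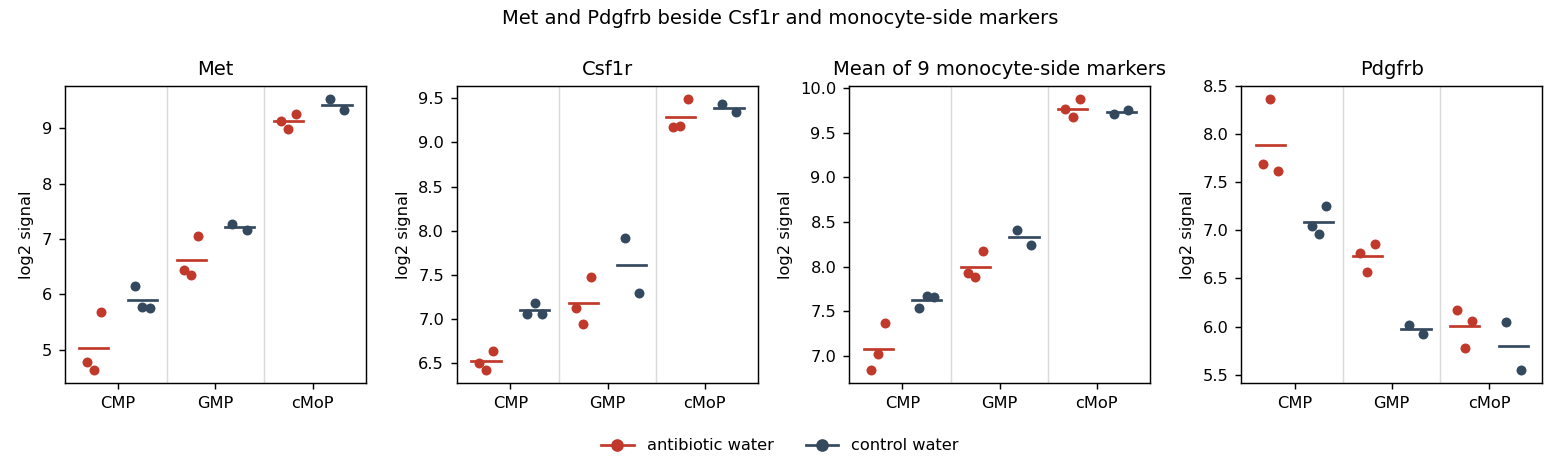
Each panel plots the log2 signal (vertical axis, own range) on every array by progenitor, antibiotic left of control, with a line at the group mean, for Met, Csf1r, the mean of 9 monocyte-side markers and Pdgfrb. The first 3 were lowest in CMPs after antibiotics and highest in cMoPs, and Pdgfrb was highest in CMPs after antibiotics.

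In the gene order of RefSeq, Csf1r is also the next measured gene after Pdgfrb, and in the mouse both lie on chromosome 18. Their values went in opposite directions. For cMoPs minus CMPs the difference was 2.53 ± 0.13 for Csf1r and -1.59 ± 0.14 for Pdgfrb. Csf1r (CD115) belongs to the cMoP sort gate, so its direction between progenitors was set by the sort and is not a result. The mean antibiotic difference was -0.37 ± 0.11 for Csf1r (adjusted p of limma 0.273) and 0.59 ± 0.12 for Pdgfrb. Among the 15 measured neighbours of the 8 genes, limma called 3, with Csf1r among them, for cMoPs minus CMPs, where 18.9% of all genes were called. For antibiotics over the progenitors it called 0, where 0.514% of all genes were called, and 2 had an unadjusted p under 0.05, as 9.54% of all genes did. Ddc, the neighbour of Grb10 in the same imprinted region, differed by 0.01 for antibiotics and by 0.13 for cMoPs minus CMPs. Ddc signals were weak, with group means of 3.59 to 3.85 under the array medians, so a difference may be understated.

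The other genes of these pathways were taken from 12 lists with 202 measured genes. The lists were chosen with earlier results of these data known and hold the sort gate genes Kit and Csf1r. The shares below are therefore a description and not evidence about the pathways. For cMoPs minus CMPs limma called 26 higher and 32 lower, together 28.7%, where 18.9% of all genes were called. For GMPs minus CMPs it called 30 higher and 26 lower (27.7%, against 16% of all genes), and for cMoPs minus GMPs 9 higher and 13 lower (10.9%, against 5.42%). For antibiotics over the progenitors it called 0 of the 202, where 0.514% of all genes were called, and 18 had an unadjusted p under 0.05 (8.91%, against 9.54% of all genes).

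Around HGF and MET, 4 of 14 measured genes were called higher and 3 lower in cMoPs than in CMPs, with a median difference of 0.20 (0.04 over all genes). Plau, the urokinase protease, which can activate HGF, rose by 1.83 ± 0.17 (adjusted p = 6.62e-07). St14, the membrane protease matriptase, another activator, rose by 1.58 ± 0.17 (adjusted p = 3.13e-06), and Plaur, the urokinase receptor, by 1.35 ± 0.12 (adjusted p = 5.62e-07). Outside the rule of the 3 largest differences, the 3 called lower were Gab1 (-1.33 ± 0.14, adjusted p = 3.04e-06), Hpn (-1.08 ± 0.16, adjusted p = 8.73e-05) and Spint2 (-0.83 ± 0.12, adjusted p = 7.34e-05). These adjusted p-values and those that follow for single genes are from limma. The list had 3 called higher and 2 lower in GMPs minus CMPs and likewise 3 higher and 2 lower in cMoPs minus GMPs. Its called genes went both ways, and activation of HGF was not measured.

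Around neuregulin, 2 of 19 genes were called higher and 2 lower for cMoPs minus CMPs (median 0.01). Nrg2, a second neuregulin, rose by 1.89 ± 0.17 (adjusted p = 4.27e-07) and by 1.72 ± 0.17 for GMPs minus CMPs. Bace1, a protease that processes neuregulin 1, rose by 1.31 ± 0.14 in GMPs over CMPs (adjusted p = 4.58e-06), and Erbin, a binding partner of ERBB2, fell by 0.65 ± 0.09 in cMoPs (adjusted p = 6.16e-05). For GMPs minus CMPs 3 were called higher and 2 lower, and for cMoPs minus GMPs 0, with 2 at an unadjusted p under 0.05. Of the receptors of neuregulin 1, Erbb3 had group means of 3.76 to 4.115, near the array medians, and Erbb4 2.635 to 2.97, near the lower quartiles. Neither receptor gene was called in a progenitor comparison. Of the 6 other PDGF genes, limma called 1 higher and 1 lower in GMPs minus CMPs, namely Pdgfa (0.45 ± 0.11, adjusted p = 0.0113) and Pdgfd (-0.93 ± 0.16, adjusted p = 0.00044), both ligands. Pdgfd signals were weak, with group means of 2.73 to 3.86 under the array medians. For cMoPs minus CMPs limma called 1 lower (median 0.15), and for cMoPs minus GMPs 0, with 0 at an unadjusted p under 0.05.

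Of 9 other VEGF genes, 3 were called higher and 0 lower in cMoPs than in CMPs (median 0.17). They were the co-receptor genes Nrp1 (2.52 ± 0.17, adjusted p = 1.59e-08) and Nrp2 (1.13 ± 0.11, adjusted p = 9.95e-07), and Flt1, a VEGF-A receptor (0.58 ± 0.13, adjusted p = 0.00477), which was highest in GMPs with 1.04 ± 0.13 over CMPs. For GMPs minus CMPs 2 were called higher and 0 lower, and for cMoPs minus GMPs likewise 2 and 0. Of 15 genes around the hypoxia-inducible factor, of which Vegfa is a target, 5 were called higher and 2 lower in GMPs than in CMPs (median 0.24, against 0.025 over all genes). For cMoPs minus GMPs 1 was called higher and 2 lower (median -0.11), and for cMoPs minus CMPs 4 higher and 2 lower (median 0.14).

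Of 18 other genes of the insulin and IGF axis, 2 were called higher and 1 lower in cMoPs than in CMPs (median 0.10). Igf2r, which clears IGF2 and is itself imprinted, fell by 1.70 ± 0.15 (adjusted p = 5.44e-07), along the same order as Grb10. Igfbp4, a secreted IGF-binding protein, rose by 0.93 ± 0.12 (adjusted p = 2.78e-05), and Igf2bp3, an RNA-binding protein, by 0.29 ± 0.09 (adjusted p = 0.0288). For GMPs minus CMPs 1 was called higher and 1 lower, and for cMoPs minus GMPs 0 higher and 1 lower. Of 22 adaptors, including the Grb10 relatives Grb7 and Grb14, 5 were called higher and 2 lower in cMoPs than in CMPs (median 0.02). Nedd4, the ubiquitin ligase that pairs with GRB10, fell by 1.69 ± 0.10 (adjusted p = 2.85e-09), while Sh2b2, an adaptor of the insulin receptor, rose by 1.40 ± 0.15 (adjusted p = 4.37e-06) and Cbl, a ubiquitin ligase of activated receptors, by 0.81 ± 0.09 (adjusted p = 4.8e-06). For GMPs minus CMPs 6 were called higher and 1 lower, and for cMoPs minus GMPs 0 higher and 2 lower.

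Feedback targets of growth factor signalling were called lower in 6 of 13 cases and higher in 0 for cMoPs minus CMPs (median -0.34, against 0.04 over all genes). Spry4, a Sprouty inhibitor of RAS signalling, fell by 1.67 ± 0.22 (adjusted p = 3.21e-05) in cMoPs and by 1.78 ± 0.22 in GMPs against CMPs. Ier3, an immediate early gene, fell by 1.09 ± 0.17 in cMoPs against CMPs (adjusted p = 0.000141). Spry2, another Sprouty gene, had a peak in GMPs instead, at 1.30 ± 0.18 over CMPs (adjusted p = 8.16e-05) with a cMoP minus GMP difference of -0.93 ± 0.19 (adjusted p = 0.00768). For GMPs minus CMPs 1 was called higher and 4 lower, and for cMoPs minus GMPs 0 higher and 2 lower. For cMoPs minus CMPs the counts were 1 higher and 3 lower of 9 RAS and MAP kinase genes (median -0.06), and 3 higher and 4 lower of 19 PI3 kinase genes (median -0.05). They were 0 higher and 4 lower of 22 imprinted genes (median -0.04) and 2 higher and 5 lower of 39 other receptor tyrosine kinases (median 0.05). The last list holds the sort gate genes Csf1r, called higher (2.53), and Kit, called lower (-1.10). The direction of Csf1r was set by the sort.

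**Figure D5:**
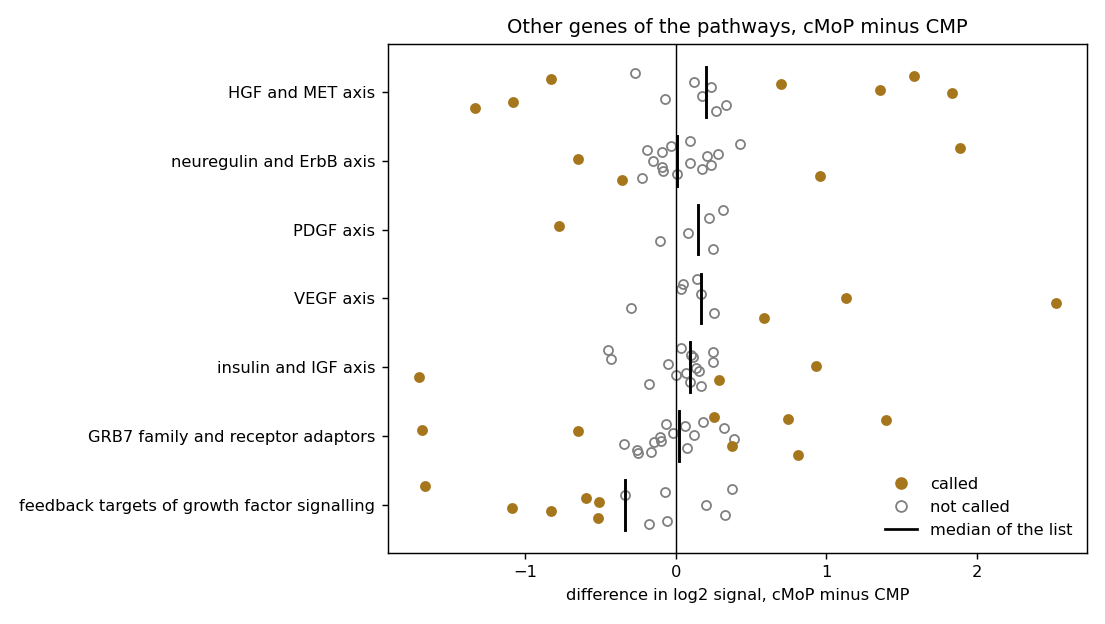
Each point is 1 gene of 7 pathway lists, placed by its cMoP minus CMP difference in log2 signal (horizontal axis), filled where limma called it, and the bar marks the median of its list. The median lay at -0.34 for the feedback targets and between 0.01 and 0.20 for the other 6 lists.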

How the data were processed

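The authors deposited 1 log2 signal per probe set and array for 41345 probe sets, and the submitters' processing notes name Partek and the Transcriptome Analysis Console. Versions, summarisation and normalization are not stated, and the values were used as deposited. Per the labels' protocols, 2.6 ng of total RNA was amplified and labelled. Of the probe sets, 23521 carried 1 gene symbol, 1814 several and 16010 none, per an annotation table of the platform, and the brightest per gene was kept (22180 genes), without a filter. Arrays give no counts, so the number of arrays limits the precision.

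Limma 3.58.1 in R 4.3.3 was fitted to 6 group means (10 residual and 5.28 prior degrees of freedom), with Benjamini-Hochberg adjustment over all genes. The study's stated rate of 0.2 was used for antibiotics and for the interaction F test, and 0.05 between progenitors. The code was tested on simulated data. The 8 genes, the lists and the rule for named genes (called genes with the 3 largest differences per axis, adaptor and feedback list, and the 3 highest correlations per gene) were chosen with earlier results of these data known. Pdk1, entered among the PI3 kinase genes, is a pyruvate dehydrogenase kinase. Promoter sequences are from RefSeq, GRCm38.p6.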

Additional observations from a re-analysis of the deposited data

How the results depend on the processing

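Over 6 alternatives and the omission of each of 16 arrays, the differences of Grb10, Met and Pdgfrb over the progenitors kept their sign (-0.80 to -0.64, -0.70 to -0.52 and 0.51 to 0.67). Calls over all genes depended more on the setting. For antibiotics over the progenitors, 114 genes became 353 when dim genes (mean under that of the median gene) were left out and 350 under limma's trend and robust options. In CMPs, 9 became 35, 61 and, with quantile normalization, 21. In GMPs, 16 became 27 under either of the first 2. For the interaction, 1 became 3, 9 and, with quantile normalization, 2. Omitting an array gave 41 (without CMP antibiotic 1) to 269 (without cMoP control 2), 2 to 39 in CMPs, 2 to 42 in GMPs, 3 to 226 in cMoPs and 1 to 24 for the interaction. The cause was not tested. Between progenitors, counts stayed within 1.5 times. The adjusted p of Vegfa's interaction ranged from 0.434 to 0.854.

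With replicate number as a block, the count was 16 in CMPs, 8 (against 29) in cMoPs and 2 for the interaction, and 120 over the progenitors, where Met was called (-0.68). The numbers were not shown to pair samples: deviations from group means of same-numbered antibiotic and control arrays correlated at -0.03 to 0.03 over 7 pairs. Those of same-numbered arrays of 1 water in different progenitors correlated at -0.05 to 0.10 over 15 pairs, 1 of them over 0.1, and whether such arrays share animals is not stated in the labels.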

Other observations

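Outside the rule for named genes, and chosen after its values were seen, Igfbp3, a secreted IGF-binding protein, was the 1 gene of the 12 pathway lists that limma called for antibiotics within a progenitor. In cMoPs its mean log2 signal was 4.25 with antibiotics, against 3.595 in controls (0.65 ± 0.13, adjusted p = 0.156), against array medians of 4.04 to 4.17. Its difference was -0.24 ± 0.12 in CMPs and 0.08 ± 0.13 in GMPs, and limma's interaction test, which called 1 gene (Clec4a2), did not call it.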
